A study of Rattus norvegicus with 3 samples.

Results

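The 8 genes described here encode the regulated core of the pyruvate dehydrogenase complex and the enzymes that switch it on and off. They are Pdha1 and Pdhb, the subunits of the decarboxylase component, the kinases Pdk1, Pdk2, Pdk3 and Pdk4, and the phosphatases Pdp1 and Pdp2. They were taken by symbol from a table of 17450 gene rows. All 8 were found, each on 1 row that overlaps no other row. The cells were cultured ventricular myocytes (heart muscle cells) from the hearts of 1-day-old Sprague Dawley rat pups, enriched by Percoll gradient and preplating and moved to serum-free medium. Of the 3 groups, the control received ethanol, and the others 100 nM dexamethasone (Dex) for 1 h or for 24 h. Dex is a drug of the cortisol family and a strong agonist of the glucocorticoid receptor (GR). Each group was 1 labelled sample whose title speaks of 2 libraries, and the files give 1 pooled value per gene and group. The control served both times and has no treatment time in the labels, so Dex and time in culture cannot be told apart.

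The complex sits in the mitochondrial matrix and turns pyruvate from glycolysis into acetyl-CoA, an irreversible step that commits carbohydrate carbon to oxidation. The kinases phosphorylate serines of the Pdha1 subunit and so inactivate the complex, and the phosphatases remove these phosphates and restore activity. In heart and skeletal muscle, Pdk4 is known as the kinase that is induced by fasting, diabetes and fatty acids, when muscle spares glucose and burns fat.

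Levels are given as FPKM, fragments per kilobase of transcript scaled to the size of the library, which allows genes of different length to be compared. Depth is unknown and no replicate values were used, so no spread between replicates can be given. The error of a log2 fold is a standard error (SE), the size of the fold divided by the authors' test statistic. "Rose" and "fell" are used where the authors' deposited table marks a gene as significant (a q-value of at most 0.05). Beside the 8 genes, all 8 cardiomyocyte markers were present, with a summed level of 20072 FPKM in control, 18727 at 1 h and 14490 at 24 h. Markers of other cells were present too. The 7 fibroblast markers summed to 5718 to 6716 FPKM and the 5 smooth muscle and pericyte markers to 7481 to 9355. The 5 endothelial markers went from 34.5 in control to 36.4 at 1 h and 73.4 at 24 h, and the 5 macrophage markers from 108.8 to 113.1 and 175.2. The 2 erythroid markers with a row summed to 48.3, 97.8 and 103 FPKM. No marker with a row was at 0 in any group. Which cells the RNA of these markers came from was not tested. In such bulk RNA, a change in the number of cells of a type and a change in RNA per cell cannot be told apart.

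The start regions of 4 of these genes are shown first. A GR-bound region was centred within 1 kb of the start of Pdk4, Pdk1 and Pdhb. None was assigned to Pdk2, the kinase with the highest level in control. Pdp1 also had a region within 1 kb, but no RefSeq promoter was found for it. By rn5 positions, the regions of Pdk4, Pdk1 and Pdhb lie mostly or wholly outside the printed windows. Each sequence runs from 250 bases before to 50 bases after the RefSeq start (build GRCr8, written 5′ to 3′ on the strand of the gene). Capitals mark the GC box (GGGCGG), the CCAAT box (CCAAT), the E-box (CACGTG) and the FoxO-type letters GTAAACA, each searched on both strands. The windows are chr4:34568280-34568579 (minus strand) for Pdk4, chr3:77113264-77113563 (plus) for Pdk1, chr15:19182539-19182838 (plus) for Pdhb and chr10:80483863-80484162 (minus) for Pdk2.
Pdk4: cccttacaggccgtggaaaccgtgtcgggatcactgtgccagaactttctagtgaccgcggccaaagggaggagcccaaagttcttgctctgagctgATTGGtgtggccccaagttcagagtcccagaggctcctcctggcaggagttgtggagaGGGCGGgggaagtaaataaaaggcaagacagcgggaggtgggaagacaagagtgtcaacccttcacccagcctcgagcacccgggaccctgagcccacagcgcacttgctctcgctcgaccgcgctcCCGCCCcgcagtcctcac
Pdk1: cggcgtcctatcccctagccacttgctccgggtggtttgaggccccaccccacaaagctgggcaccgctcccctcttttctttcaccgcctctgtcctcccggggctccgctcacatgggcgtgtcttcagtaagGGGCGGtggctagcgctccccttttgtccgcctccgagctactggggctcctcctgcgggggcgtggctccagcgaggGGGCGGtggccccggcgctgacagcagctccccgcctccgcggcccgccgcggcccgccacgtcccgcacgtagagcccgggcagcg
Pdhb: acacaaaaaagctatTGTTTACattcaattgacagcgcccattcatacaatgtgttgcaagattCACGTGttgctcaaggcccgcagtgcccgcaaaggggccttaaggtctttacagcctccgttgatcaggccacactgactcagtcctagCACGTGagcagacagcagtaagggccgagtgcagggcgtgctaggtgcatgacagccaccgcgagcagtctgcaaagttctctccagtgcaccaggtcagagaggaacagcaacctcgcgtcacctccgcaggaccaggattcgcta
Pdk2: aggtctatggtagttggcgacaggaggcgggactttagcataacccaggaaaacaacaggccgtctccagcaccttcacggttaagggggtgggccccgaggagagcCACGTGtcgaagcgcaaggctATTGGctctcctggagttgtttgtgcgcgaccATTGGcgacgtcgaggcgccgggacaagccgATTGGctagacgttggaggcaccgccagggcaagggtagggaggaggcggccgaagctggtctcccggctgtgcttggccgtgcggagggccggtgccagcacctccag

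In control cells the subunits had the highest levels of the 8 genes and Pdk4 the lowest. Pdha1, the subunit that carries the phosphorylated serines (gene XLOC_016960; rn5 chromosome X, 37640725 to 37654356), had 166 FPKM. Pdhb, its partner subunit (XLOC_006018; chromosome 15, 22507948 to 22513890), had 78.5. Among the kinases the order was Pdk2 (30.03 FPKM), Pdk1 (12.6), Pdk3 (9.47) and Pdk4 (4.06). The phosphatase Pdp1, which is stimulated by calcium, had 19.9 FPKM and Pdp2, which is not, had 10.1. Measured against the 10707 rows with at least 1 FPKM in a group, Pdha1 stood at percentile 94.6 of control levels, Pdk2 at 70.7 and Pdk4 at 17.6. Without replicate values, which neighbours in this order differ beyond their spread was not tested.

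**Figure D1:**
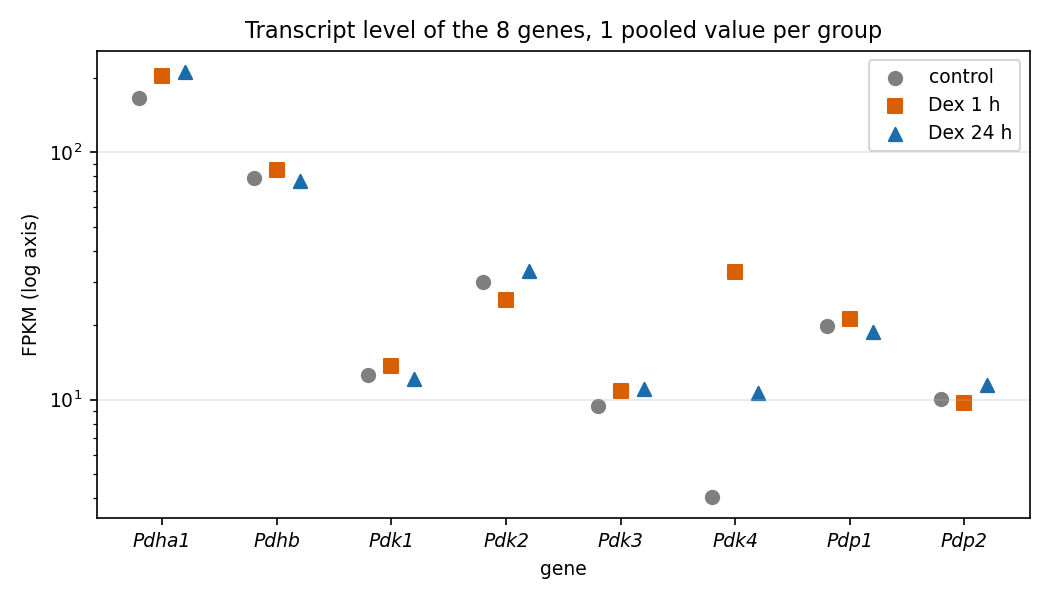
Transcript level (FPKM, log axis) of the 8 genes, with 1 pooled value per gene for control (circle), Dex 1 h (square) and Dex 24 h (triangle), and no error bars because no replicate values were used. Pdk4 moves from 4.06 to 32.8 and 10.7 FPKM, while the 3 values of every other gene lie close together.

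The comparison of 1 h of Dex with control addresses the early response to GR activation. Pdk4 (XLOC_012000; chromosome 4, 30453698 to 30463700) was at 4.06 FPKM in control, 32.8 at 1 h and 10.7 at 24 h. The 1 h value was the highest and the control value the lowest. At 1 h Pdk4 rose 8.08-fold, a log2 fold of 3.01 ± 0.38 (SE, 95% interval 2.26 to 3.77), and the fold was 2.74 on the log2 scale when 1 was added to both FPKM values. Its q-value in the authors' deposited table was 0.00238. Among the 100 genes called at 1 h, 1 had a higher fold. Pdk4 moved from percentile 17.6 of the expressed genes to percentile 72.8. It was the 1 gene of the 8 that was called, against 0.622% of the 11582 genes tested that were called higher, 0.242% called lower and 0.863% called in either direction. Of the markers, 1 of 2 erythroid markers was called higher at 1 h and none of the other lists was called. Its part in the result was not tested.

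The other kinases had log2 folds between −0.24 and 0.20 at 1 h. Pdk2, a kinase found in most tissues (XLOC_003727; chromosome 10, 82649285 to 82663773), had 30.03 FPKM in control and 25.4 at 1 h. Its log2 fold was −0.24 ± 0.32 (95% interval −0.87 to 0.38). Pdk1, known as a target of the hypoxia factor Hif1a (XLOC_010059; chromosome 3, 65019116 to 65046275), had 12.6 and 13.7 FPKM (0.12 ± 0.35). Pdk3, a kinase best known from testis (XLOC_017272; chromosome X, 63428816 to 63496239), had 9.47 and 10.9 FPKM (0.20 ± 0.34). None of these folds passed the authors' test, and the intervals of all 7 other genes lay between −0.87 and 0.89 on the log2 scale. The fold of Pdk4 exceeded that of Pdk2 by 3.26 ± 0.50, that of Pdk1 by 2.89 ± 0.52 and that of Pdk3 by 2.81 ± 0.52 (SE of the difference, with the errors of the genes taken as independent). The 95% intervals of these differences began at 2.28, 1.87 and 1.80, without adjustment for the 21 differences computed between Pdk4 and a member.

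Phosphatases and subunits were not called at 1 h. Pdp1 (XLOC_012996; chromosome 5, 30284070 to 30290625) had 19.9 FPKM in control and 21.3 at 1 h (log2 fold 0.10 ± 0.32). Pdp2 (XLOC_008040; chromosome 19, 591892 to 595934) had 10.1 and 9.66 FPKM (−0.06 ± 0.35). Pdha1 had 166 and 204 FPKM (0.30 ± 0.30) and Pdhb 78.5 and 84.8 (0.11 ± 0.31). In the authors' deposited table the smallest unadjusted p among these 7 genes at 1 h was 0.165, that of Pdha1.

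**Figure D2:**
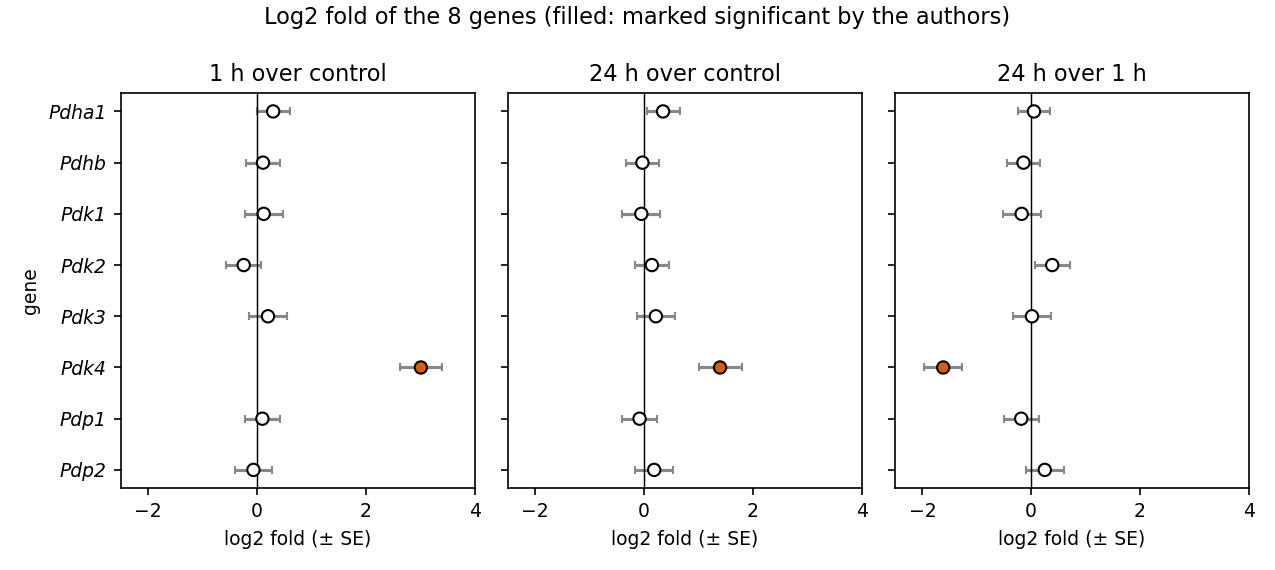
Log2 fold of the 8 genes in the 3 comparisons, with the SE from the authors' test statistic as bars and filled points for genes marked significant by the authors. Pdk4 is the 1 filled gene in each panel, at 3.01, 1.40 and −1.62.

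The comparison of 24 h of Dex with control addresses sustained exposure. Pdk4 was still higher than in control at 10.7 FPKM, a 2.63-fold rise (log2 fold 1.40 ± 0.40, 95% interval 0.62 to 2.17). It was again the 1 called gene of the 8, against 4.18% of the 11673 genes tested that were called higher, 2.04% called lower and 6.22% called in either direction. Its q-value at 24 h in the authors' deposited table was 0.00238. Ordered by fold from the highest, Pdk4 stood at place 216 among the 726 genes called, of which 488 were called higher. Called genes with 0 FPKM in either group have no log2 fold and were given no place. Beside this value, 3 of 5 endothelial, 2 of 5 macrophage, 1 of 7 fibroblast and 1 of 2 erythroid markers were called higher at 24 h. Among 8 cardiomyocyte markers 1 was called lower, as was 1 of 5 smooth muscle and pericyte markers. The part of these cells in the result was not tested.

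The remaining 7 genes were not called at 24 h. Pdha1 had the largest fold among them, from 166 to 211 FPKM (log2 fold 0.35 ± 0.30, 95% interval −0.25 to 0.94). The authors' deposited table gave it an unadjusted p of 0.107 and a q-value of 0.774. Pdk2 had 33.2 FPKM (0.14 ± 0.32), Pdk1 12.2 (−0.05 ± 0.35) and Pdk3 11.0 (0.22 ± 0.34). Pdp1 had 18.7 FPKM (−0.08 ± 0.32), Pdp2 11.5 (0.19 ± 0.34) and Pdhb 76.9 (−0.03 ± 0.31). The fold of Pdk4 exceeded that of Pdha1 by 1.05 ± 0.50, with a 95% interval from 0.07 to 2.03, the difference nearest to 0 of the 7 at 24 h. This interval, too, was not adjusted for the 21 differences computed between Pdk4 and a member.

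Between 1 h and 24 h of Dex, Pdk4 fell from 32.8 to 10.7 FPKM, a 3.07-fold decrease (log2 fold −1.62 ± 0.35, 95% interval −2.299 to −0.93). Of the 28.7 FPKM gained at 1 h, 23.1% was present at 24 h. The q-value of this fall was 0.00238 in the authors' deposited table. It was the 1 called gene of the 8, against 1.61% of the 11641 genes tested that were called lower, 3.31% called higher and 4.92% called in either direction. Pdk2 had the next largest fold, from 25.4 to 33.2 FPKM (0.39 ± 0.32), which did not pass the test. The authors' deposited table gave an unadjusted p of 0.0817. The intervals of the 7 other genes lay between −0.86 and 1.01. In this comparison 3 endothelial, 2 macrophage and 1 smooth muscle and pericyte markers were called higher, and 1 cardiomyocyte and 1 smooth muscle and pericyte marker lower, and their part in the fall of Pdk4 was not tested.

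The make-up of the kinase transcripts differed between the groups. In control, Pdk2 held 53.5% of the summed FPKM of the 4 kinases and Pdk4 7.23%. At 1 h Pdk4 held 39.6% and was the highest of the 4, ahead of Pdk2 with 30.6%. At 24 h Pdk2 was the highest again with 49.5%, and Pdk4 held 16.0% and was the lowest, next to Pdk3 with 16.4%. The summed kinase level was 56.2 FPKM in control, 82.8 at 1 h and 67.0 at 24 h. Without Pdk4 the sums were 52.1, 49.99 and 56.3. The phosphatase sum lay between 29.95 and 30.93 FPKM, so that the ratio of kinase to phosphatase transcripts was 1.87 in control, 2.68 at 1 h and 2.22 at 24 h. Without Pdk4 the ratio was 1.74, 1.62 and 1.86. The ratio of Pdha1 to Pdhb was 2.11, 2.40 and 2.74 in the same order. Shares and ratios within a group carry no error here and do not depend on the scaling between groups. They describe RNA, not the amount or activity of the enzymes.

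**Figure D3:**
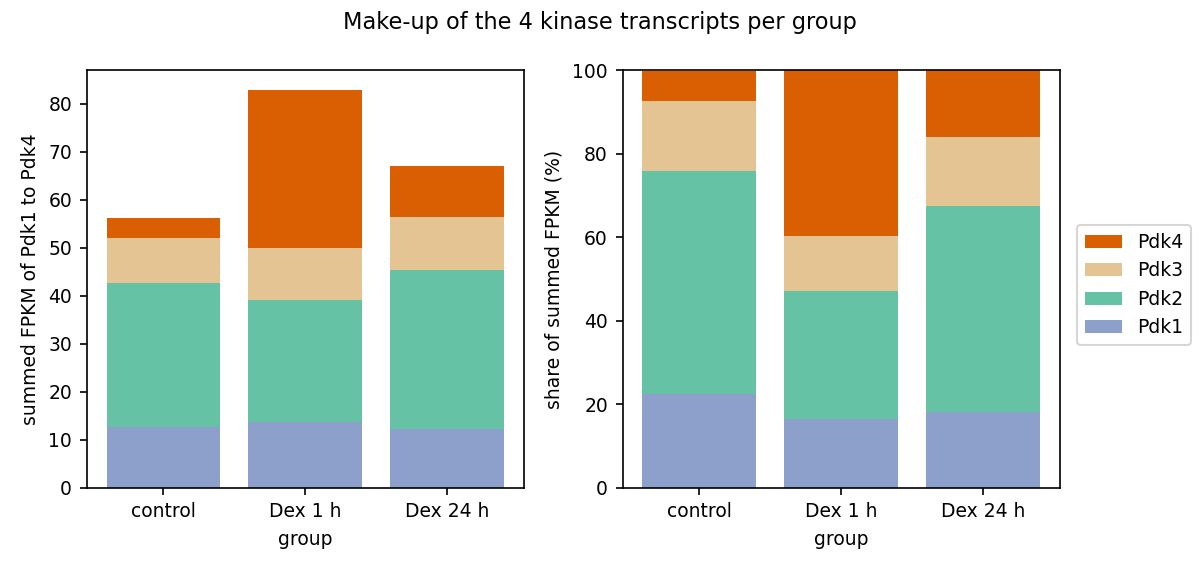
Summed FPKM of the 4 kinase transcripts (left) and the share of each in that sum (right) for control, Dex 1 h and Dex 24 h, 1 pooled value per group. The Pdk4 share is 7.23% in control, 39.6% at 1 h and 16.0% at 24 h, and the sum of the other 3 lies between 49.99 and 56.3 FPKM.

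The sheet that joins expression with GR binding assigned 7 GR regions to 5 of the 8 genes. The ChIP experiment behind it is separate from the 3 RNA samples, and heights (highest average tag value) and log2 ratios of Dex over its DMSO control are the authors' own. Regions were assigned to 48.7% of the symbols with at least 1 FPKM, and regions within 1 kb of the start to 29.8%. Of the 8 genes, 4 had a region within 1 kb. The region of Pdk4 (rn5 chromosome 4, 30463931 to 30464224) was centred 377 bases upstream of the start. It spanned 524 to 231 bases upstream, had a height of 23.5 (percentile 65.2 of 8514 regions) and a log2 ratio of 1.99 (percentile 33.5). The printed sequence of Pdk4 begins 250 bases upstream in another build, and positions were not converted between builds.

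The 6 regions at genes that were not called had heights from 17.4 to 25.5. Pdk1 had 1 region inside the gene, centred 238 bases after the start (chromosome 3, 65019164 to 65019544; height 18.4, log2 ratio 2.03). Pdhb had 1, centred 425 bases after the start (chromosome 15, 22508248 to 22508498; height 17.9, log2 ratio 0.97, percentile 3.54), which was also assigned to a second gene. Pdp1 had 3 regions upstream. They were centred at 901 bases (chromosome 5, 30290760 to 30291163; height 25.5, log2 ratio 2.05), 7084 bases (30297035 to 30297253; 17.4 and 2.54) and 10092 bases (30299966 to 30300339; 24.2 and 3.59) from the start. Pdp2 had 1 region 11894 bases downstream of its start (chromosome 19, 583896 to 584185; height 22.4, log2 ratio 2.61). Pdk2, Pdk3 and Pdha1 had none assigned. Over all genes tested at 1 h, 0.850% of the 3177 with a region within 1 kb of the start were called higher, beside 0.622% of all genes tested. At 24 h the shares were 3.87% of 3176 such genes and 4.18% of all genes tested. With regions at any distance, 0.965% of 5286 tested genes were called higher at 1 h and 5.06% of 5318 at 24 h.

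**Figure D4:**
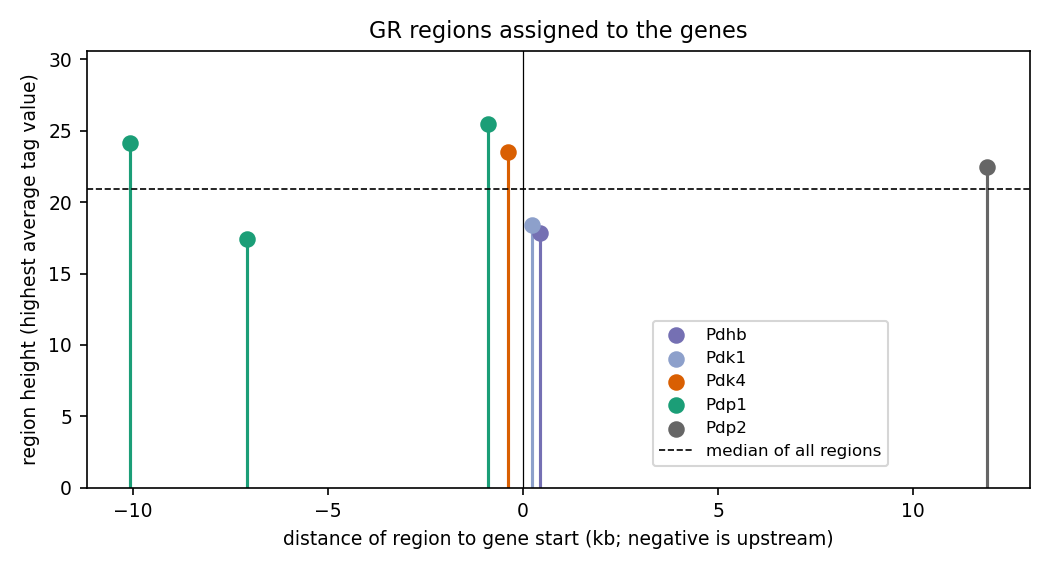
The 7 GR regions assigned to the genes, by distance of the region to the gene start (kb, negative upstream) and height (the authors' highest average tag value), with the median of all regions, 20.9, as a dashed line. The region of Pdk4, 377 bases upstream with a height of 23.5, lies beside regions of Pdp1, Pdk1 and Pdhb within 1 kb of their starts.

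RefSeq promoters were found for 6 of the 8 genes and not for Pdp1 and Pdp2. The GR hexamer AGAACA, searched on both strands, was in none of the 6 windows and in 20.7% of all 33469 promoters of the same length. The full GR palindrome (AGAACA, any 3 bases, then TGTTCT) with up to 2 mismatches in its 12 fixed bases was in none of the 6 and in 1.87% of all promoters. By rn5 positions, the GR regions of Pdk4, Pdk1 and Pdhb lie mostly or wholly outside these windows. Whether those regions hold either GR motif was therefore not tested. GTAAACA was in the Pdhb window, at position −235 from the start, and in 3.78% of all promoters. The GC box was in Pdk4, Pdk1, Pdk3 and Pdha1 (33.1% of all promoters), the CCAAT box in Pdk4, Pdk2 and Pdk3 (37.5%) and the E-box in Pdhb and Pdk2 (6.42%). Pdk2 held 3 CCAAT boxes and Pdhb 2 E-boxes. The motifs found in these windows do not overlap each other. A match is a description of letters and not a bound site.

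The genes whose pair of log2 folds over control lay nearest to that of Pdk4 were Abra, Arrdc3, Sox8, Per1 and Sesn1, among 10682 rows compared. The measure was the Euclidean distance of the 2 folds, over 3 groups. Abra, an actin-binding protein of striated muscle, was nearest (distance 0.65), at 6.69, 35.3 and 15.2 FPKM in control, at 1 h and at 24 h. Arrdc3, an arrestin-domain protein (0.83), had 7.55, 44.4 and 12.3 FPKM and was not called at 24 h. The transcription factor Sox8 (0.86) had 0.220, 1.13 and 0.853 FPKM and reached 1 FPKM in the 1 h group alone. With 1 added to both values its log2 folds over control were 0.80 at 1 h and 0.60 at 24 h, beside 2.74 and 1.21 for Pdk4, so its place among the nearest rests on values near 0. The clock gene Per1 (0.95) had 8.02, 44.99 and 36.5 FPKM, and Sesn1, an inhibitor of mTOR signalling (1.05), had 7.31, 28.7 and 17.8 FPKM, uncertain because its locus overlaps another row. Of the 1 h gain in FPKM, 29.8% was present at 24 h for Abra and 12.9% for Arrdc3, beside 23.1% for Pdk4, and 48.8% for Sesn1, 69.9% for Sox8 and 77.1% for Per1. The level fell between 1 h and 24 h in Abra, Arrdc3 and Sesn1, and the folds of Sox8 (−0.40 ± 0.49) and Per1 (−0.30 ± 0.31) for 24 h over 1 h did not pass the test. Each had GR regions assigned, 1 for Abra, 1 for Arrdc3, 4 for Sox8, 3 for Per1 and 4 for Sesn1, beside 48.7% of symbols with at least 1 FPKM. The regions of Abra and Per1, the upstream regions of Sox8 and the region nearest the start of Sesn1 were also assigned to a second gene. The other regions of Sesn1 lay 68457 to 75866 bases after its start.

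**Figure D5:**
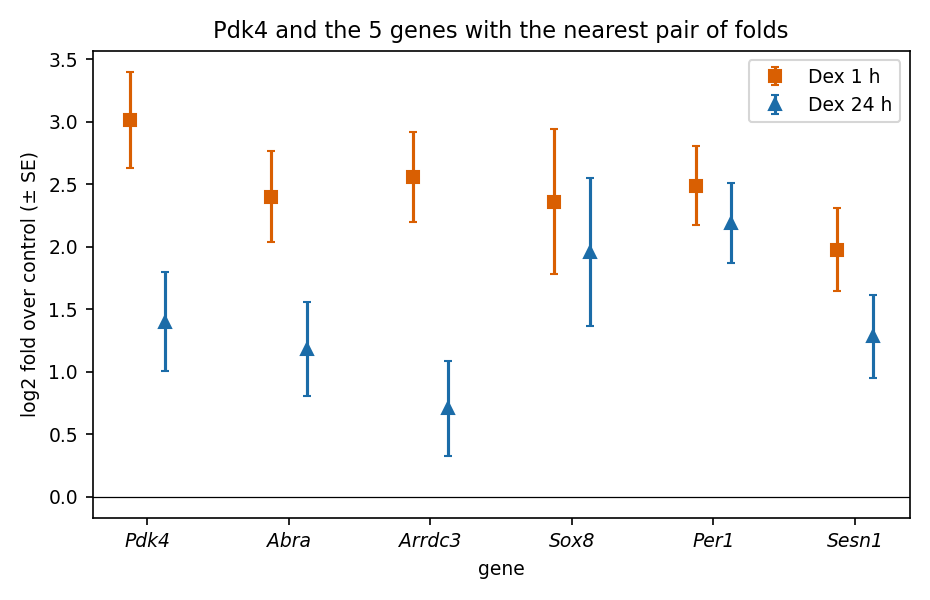
Log2 fold over control at 1 h (squares) and 24 h (triangles) of Pdk4 and the 5 genes with the nearest pair of folds, with the SE from the authors' test statistic as bars. Pdk4, Abra, Arrdc3 and Sesn1 lie lower at 24 h than at 1 h by 1.62, 1.21, 1.85 and 0.69. Sox8 and Per1 lie lower by 0.40 and 0.30, differences that were not called.

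Genes of the wider pathway were counted in 6 lists. The lists of 66 further genes held 63 that were tested, of which 2 rose at 1 h and 61 were not called. At 24 h 5 rose, 1 fell and 57 were not called, and for 24 h over 1 h 1 rose, 1 fell and 61 were not called. In the 1 h comparison 3.17% were called, beside 0.863% of all genes tested. The share was 9.52% after 24 h, beside 6.22%, and 3.17% between the Dex groups, beside 4.92%. Their median log2 fold was −0.01 in the 1 h comparison and −0.06 in each of the others, beside −0.00 (1 h), −0.00 (24 h) and −0.01 (24 h over 1 h) over all genes tested. None of the 4 other proteins of the complex was called in any comparison. Dld, the shared dehydrogenase, had 68.7, 83.8 and 83.4 FPKM, and Dlat, the acetyltransferase core, had 51.3, 53.8 and 55.6. Of 14 genes of pyruvate supply and alternative fates none was called in any comparison, and the lactate dehydrogenase Ldha was between 621 and 629 FPKM and the pyruvate kinase Pkm between 545 and 574. Of 9 tested genes of lipoate and thiamine supply none was called. The iron-sulfur proteins Nfu1 and Glrx5 had 32.8 and 29.4 FPKM in control, 37.8 and 27.8 at 1 h and 32.4 and 21.3 at 24 h.

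Among 8 genes of the related dehydrogenases for other oxoacids, Ppm1k rose at 24 h and 7 were not called. Ppm1k is the phosphatase that activates the branched-chain ketoacid dehydrogenase, the counterpart there of Pdp1 and Pdp2. It had 12.3 FPKM in control, 14.5 at 1 h and 23.2 at 24 h (log2 fold 0.91 ± 0.33 at 24 h). Of 14 known transcription factors and coactivators of Pdk genes, Klf15 (2.13 ± 0.34) and Cebpb (0.80 ± 0.33) rose at 1 h. The 1 h call of Cebpb, with a q-value of 0.0191 in the authors' deposited table, was lost at a q-value of at most 0.01 and with p-values adjusted within that comparison. Klf15 (1.99 ± 0.34), Cebpb (1.17 ± 0.33) and Foxo3 (0.92 ± 0.33) rose at 24 h, and 11 were not called. Klf15 went from 6.22 to 27.2 and 24.7 FPKM, and its fold for 24 h over 1 h, −0.14 ± 0.32, did not pass the test. Of 14 tested genes often induced with Pdk4 in fasting or by PPAR receptors, none was called at 1 h. At 24 h 1 rose, 1 fell and 12 were not called. The gene that fell was Fabp3, a carrier of fatty acids, from 667 to 294 FPKM, uncertain because its locus overlaps another row. The list had a median log2 fold of −0.11 at 1 h and −0.10 at 24 h.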

How the data were processed

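RNA from 3 groups (control, Dex 1 h, Dex 24 h) was analysed from the deposited tables. Per the submitters' processing notes, TopHat, Cufflinks, Cuffdiff and the genome build rn5 were used, with no version or role given. The FPKM values, the test statistic (a score of the test), the p-value and the q-value were deposited by the authors, with columns in Cuffdiff's layout per the file headers. How libraries were scaled, and whether they entered the test separately, is not stated in the labels or headers. Region height is a signal (highest average tag value) and each region comes with the authors' log2 ratio of Dex to control. Its peak caller is not stated there either, and the 6 ChIP columns of single samples were left out.

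Log2 folds were computed here as plain ratios of deposited FPKM. An SE was taken as the size of the fold over the test statistic. Deposited p-values correspond to normal quantiles 1.42 times as large as the statistic (median), and with that factor an SE taken from p would be narrower. This need not hold for genes at the smallest deposited p-value, Pdk4 among them. Its factor was 0.516 in the 1 h comparison, 0.873 between the Dex groups and 1.15 for 24 h of Dex beside control. For such genes the factor is a lower bound. Where it is below 1, p cannot show which SE is the wider. Where it is above 1, an SE taken from p would be narrower. No test between groups was run here. The calls are the authors', and their p-values compare these pools of libraries, whose separate origin is not stated. The smallest deposited p-value was 5e-05. Locus starts were shifted by 1 base to count from 1, and region bounds are as deposited. Members and lists were chosen with earlier results of these data known. Named genes were the 8 members, the called genes of each list (with none called, the 2 with the highest mean FPKM), the 5 genes nearest to Pdk4 and all GR regions of members. A gene that met this rule is not reported here, though it stays in the counts. The GC box, CCAAT box and E-box were added after the sequences were seen. Calculations used Python 3.11.15, pandas 2.3.3, numpy 2.4.6 and scipy 1.17.1, and were checked on simulated data. Alternatives were other thresholds, filters, pseudocounts, scalings, region rules and motif rules.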

Additional observations from a re-analysis of the deposited data

Results flagged for a closer look

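Both folds over control share the same control, so their difference equals the fold of 24 h over 1 h, which the authors tested. In that fold, longer exposure to Dex and longer time in culture cannot be told apart. The log2 fold of 24 h over 1 h was −1.62 for Pdk4, −1.85 for Arrdc3, −1.21 for Abra and −0.69 for Sesn1, all higher at 1 h than at 24 h. It was −1.03 for Fabp3, which was not called at 1 h. Abra, Arrdc3 and Sesn1 were named for folds near those of Pdk4 and Fabp3 for being called, so their calls follow in part from that choice. Over all genes tested, 4.92% were called for 24 h over 1 h in either direction and 1.61% lower. In the authors' deposited table the q-value was 0.0471 for Sesn1 and 0.00238 for the other 4. No group held enough samples to look for a sample far from the others.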

How the results depend on the processing

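The 150 recomputed values covered the calls, the folds of the 8 genes, the GR regions and the promoter motifs. The listed pathway genes called at 1 h numbered 1 in place of 2 both at a q-value of at most 0.01 and with p-values adjusted within that comparison, since Cebpb was then not called. The other 28 recomputed counts stayed within 1.5 times their main value. The log2 fold of Pdk4 ranged from 2.74 to 3.03 at 1 h, from 1.21 to 1.40 at 24 h and from −1.66 to −1.53 for 24 h over 1 h across pseudocounts and scalings, with the call of Pdk4 present under every threshold and filter run. For the other 7 genes the largest shift was 0.05. The fold of Pdk3 for 24 h over 1 h, 0.01, became −0.03 with upper quartile scaling and −0.02 with equal sums, and was not called. No paired analysis was possible because each group has 1 pooled value. Leaving out a replicate could not be done for the same reason. Depth is unknown, so no count-based limit can be given.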

Other observations

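In the list of pyruvate supply and alternative fates, 3 genes had a p-value under 0.05 before adjustment, by the authors' deposited table, without passing the q-value threshold, and they are named here after their values were seen. Pc, pyruvate carboxylase, which feeds pyruvate into the citric acid cycle without passing through pyruvate dehydrogenase, had 7.30 FPKM in control, 7.10 at 1 h and 12.2 at 24 h (log2 fold 0.74 ± 0.51 at 24 h). Its locus overlaps that of Lrfn4, so the value is uncertain. Slc16a3, a lactate exporter, had 19.1, 18.3 and 12.3 FPKM (−0.63 ± 0.34 at 24 h), and Me3, a mitochondrial malic enzyme, had 8.71, 7.95 and 5.92 (−0.56 ± 0.36 at 24 h). In the authors' deposited table the q-values at 24 h were 0.433, 0.149 and 0.365. The count is no result about the list, since 1672 of the 11673 genes tested (14.3%) had an unadjusted p under 0.05 at 24 h in the authors' deposited table, beside 3 of 14 (21.4%) here.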
